A study of Homo sapiens with 42 samples.

Results

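The comparison described here set 3 poly(A) RNA-seq libraries of 786-O cells that express a HIF-1α/2α chimera against 3 libraries of unmodified wild type (WT) 786-O cells, 6 of the 42 libraries of the series and all libraries of these groups in its second batch. 786-O is a human clear cell renal cell carcinoma line that lacks a functional VHL protein. Both groups therefore share endogenous HIF-2α that escapes degradation, and both lack functional endogenous HIF-1α. The chimera joins residues 1 to 363 of HIF-1α, its structured part with the DNA-binding and dimerization domains, to residues 366 to 870 of HIF-2α, its intrinsically disordered region (IDR) with the activation domains. It carries a V5-HaloTag at its N-terminus and is expressed from an L30 promoter in a stably integrated transgene. The line is an antibiotic-selected pool of cells, not a clone, while the WT cells carried no transgene and were not selected, so that integration and selection cannot be told apart from the chimera in this comparison. Lines of the same batch that express full-length HIF-2α or full-length HIF-1α in the same way, with 3 libraries each, served for direct comparisons. The study describes the 3 libraries of a group as biological replicates, without saying how their cultures were separated. The p-values measure the spread between replicate libraries, estimated over all 15 libraries of the batch, and not that between independently made lines. The 15 include 3 libraries of a line with the reverse chimera, HIF-2α/1α, the HIF-2α structured part with the HIF-1α IDR. That line is in the fit but is not described further.

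HIF transcription factors are dimers of an oxygen-regulated α subunit and the constitutive β subunit HIF-1β, which is encoded by ARNT. VHL marks the α subunits for degradation when oxygen is present, so that they accumulate in hypoxia or in VHL-deficient renal carcinoma, bind hypoxia response elements with the core ACGTG or GCGTG and activate nearby genes. HIF-1α is best known for genes of glycolysis and pH control, and HIF-2α for genes of growth factors and the cell cycle in renal carcinoma. The comparison with WT asks which genes differ in cells that express the whole chimera in addition to their endogenous HIF-2α. Only the comparison with the HIF-1α line sets the IDR of HIF-2α against that of HIF-1α on the same structured part.

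The libraries held 88530985 to 109642159 counted reads in WT and 77168377 to 108727279 in HIF-1α/2α cells. Values below are normalized counts, that is, reads per gene divided by the size factor of the library, which compare libraries for a gene but not genes with each other. Of 8 listed markers of 786-O cells, 7 were expressed in WT cells, among them PAX8 (27178 ± 1592, SD, n = 3) and VIM, and CA9 was at 0. Of 14 listed markers of blood, endothelial, stromal, hepatic and podocyte cells 11 were tested, and their summed level was 261 to 434 in the WT libraries and 42.7 to 71.6 in the HIF-1α/2α libraries. Most of the WT sum came from LUM and PDGFRB, stromal genes that are described with the other changes. The part of other cells in these sums was not tested, and in bulk RNA fewer cells of a type and less RNA per cell cannot be told apart. The defining markers PTPRC, CD68, LYZ, PECAM1, CDH5 and DCN had group means of at most 3.38 normalized counts.

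Reads of both genes from which the chimera was built were raised in HIF-1α/2α cells. HIF1A (ENSG00000100644.17, GRCh38 chr14:61695513-61748259, plus strand) had 263, 303 and 312 normalized counts in the WT libraries and 10216, 9675 and 8949 in the HIF-1α/2α libraries, a 32.8-fold difference (log2 change 5.04 ± 0.08 SE, adjusted p = 9.7e-39). EPAS1 (ENSG00000116016.14, chr2:46293667-46386697, plus strand), which encodes HIF-2α, had 12035, 12256 and 13507 in WT and 51948, 53174 and 47259 in HIF-1α/2α cells, a 4.03-fold difference (log2 change 2.01 ± 0.06 SE, adjusted p = 4.3e-30). The groups did not overlap for either gene, and transgene and endogenous reads cannot be told apart in these counts. The chimera encodes only a part of each protein, while a full-length line encodes all of its own. Reads per gene grow with the length transcribed, so that the differences below do not compare transgene dose between lines. In these counts each full-length line came within 2-fold of HIF-1α/2α cells for the gene of its own transgene. The HIF-2α line had 41999 ± 635 normalized counts of EPAS1 (SD, n = 3), with a log2 difference of 0.27 ± 0.06 SE, adjusted p = 1.7e-04 for HIF-1α/2α cells, and the HIF-1α line had 13153 ± 485 of HIF1A, with a log2 difference of -0.45 ± 0.07 SE, adjusted p = 3.6e-07. For the gene that each line did not carry as a transgene the distance was larger. HIF1A was at 923 ± 138 in the HIF-2α line, 10.4-fold below HIF-1α/2α cells (log2 difference 3.38 ± 0.08 SE, adjusted p = 9.8e-33), and EPAS1 at 16350.5 ± 1135 in the HIF-1α line, 3.11-fold below (log2 difference 1.64 ± 0.06 SE, adjusted p = 1.6e-26). ARNT, the shared partner, was at 3729 ± 96.4 in WT and 3527 ± 266 in HIF-1α/2α cells (log2 change -0.08 ± 0.06 SE, adjusted p = 0.39), so that no difference was detected.

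In HIF-1α/2α cells 1431 of 28684 genes (4.99%) rose and 2.74% fell against WT, at an adjusted p of at most 0.01 and a change of at least 2-fold in edgeR's quasi-likelihood test. Both directions were well populated, but large changes were mostly increases. Among the higher genes 737 changed over 4-fold and 299 over 16-fold in the fit, against 296 and 46 among the lower genes. Protein-coding genes made up 1044 of the higher and 603 of the lower genes, and lncRNAs 278 and 134. All 3 WT libraries had at most 3 reads for 211 of the higher genes, and all 3 HIF-1α/2α libraries had at most 3 reads for 57 of the lower genes, so that the fitted changes of these genes are not fold estimates. The median log2 change over all genes tested was 0.06. With a mean of at least 50 normalized counts and non-overlapping libraries, 895 higher and 563 lower genes remained.

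**Figure D1:**
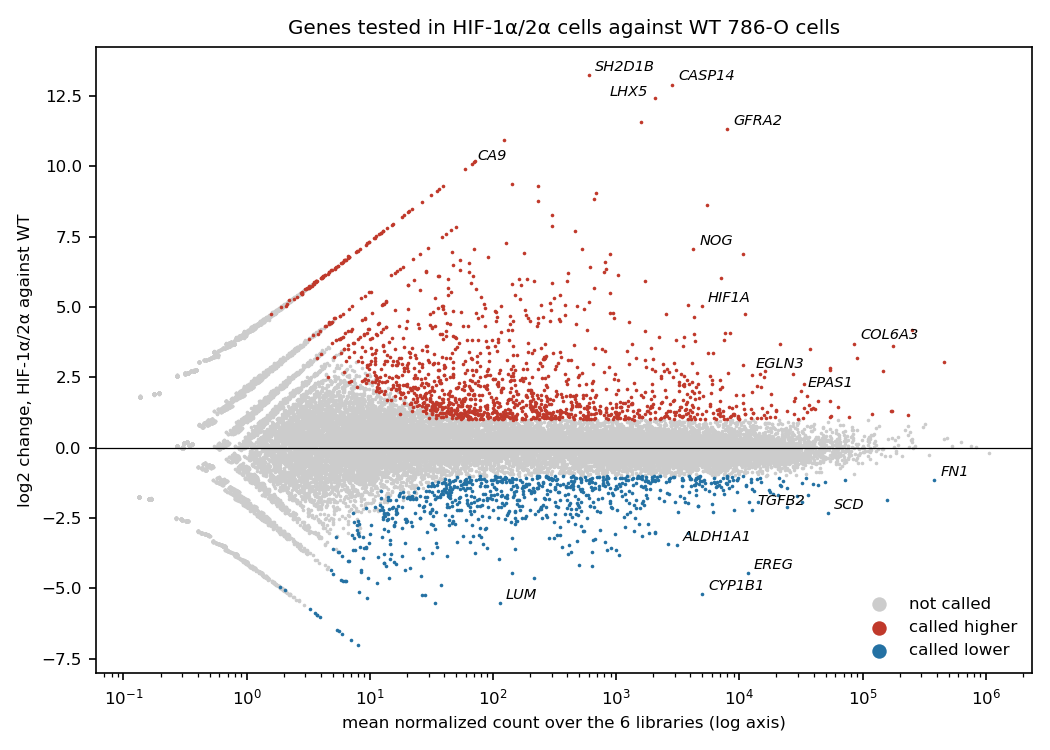
Each point is a gene tested, with its mean normalized count over the 6 libraries on a log axis and its fitted log2 change in HIF-1α/2α against WT cells. Red points are the genes called higher and blue points those called lower (genes of the Y chromosome are not drawn). The red points reach much farther from 0 than the blue ones, and the straight bands at the upper and lower left are genes with few or no reads in one of the groups.

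The genes with the largest increases were silent or nearly silent in WT cells. CASP14 (chr19:15049480-15058293, plus strand), a caspase of keratinocyte differentiation, had 0, 0 and 2.00 normalized counts in WT and 5792, 5662 and 5466 in HIF-1α/2α cells, at least 2036-fold higher against a floor of 3 reads per library. LHX5 (chr12:113462033-113472280, minus strand), a LIM homeodomain factor of neural development, had 0, 0 and 2.00 in WT and 3607, 4297 and 4377 in HIF-1α/2α cells, at least 1477-fold higher. LHX5-AS1, which overlaps LHX5 on the other strand so that their reads cannot be fully told apart, went from 0 in each library to 207, 282 and 250.2 (at least 88.9-fold). These genes were on in all 3 HIF-1α/2α libraries and had at most 3 reads in any WT library. SH2D1B, an SH2 adaptor of immune cell receptors, went from 0 in each library in WT to 1490.0, 1166 and 922, at least 430.5-fold higher.

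GFRA2, a receptor for the neurotrophic factor neurturin, reached high levels. It had 0, 10.4 and 7.00 normalized counts in WT and 16633, 16299 and 14883 in HIF-1α/2α cells (log2 change 11.32 ± 0.15 SE, adjusted p = 4.5e-42). MXRA5, a matrix remodelling protein, rose from at most 2.00 in any WT library to 3213, 3189 and 3129, at least 1147-fold. CA9 (chr9:35673928-35681159, plus strand), the membrane carbonic anhydrase used as a hypoxia marker, rose from 0 in each library to 149, 132 and 121, at least 48.3-fold. All of these ranges were separate by a wide margin, and the ranking required that they did not overlap. The imprinted lncRNA H19 rose from 0 in each library to 102, 126 and 195, at least 50.8-fold. TIMP3, an inhibitor of matrix metalloproteinases, rose from at most 1.00 to 424, 532 and 434, at least 167-fold. TIMP3 lies inside SYN3 on the other strand and counting did not use strand, so that the rise of SYN3, from at most 0.801 to 298, 281 and 274, cannot be told apart from that of TIMP3. The remaining genes of the 15 with the largest increases were FAM43A (at least 166-fold) and the unnamed lncRNAs AC005906.2 (at least 51.7-fold), AC005906.3 (458-fold), AC079466.1 (533-fold) and AC027128.1 (at least 42.6-fold). Without WT replicate 2 the log2 changes of GFRA2, AC005906.3 and AC079466.1 were 12.14, 10.22 and 9.75.

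The genes with the largest decreases were expressed in WT cells, some of them highly. CYP1B1 (chr2:38066973-38109902, minus strand), a cytochrome P450 that oxidizes oestrogens and xenobiotics, fell from 8818, 10257 and 10034 normalized counts in WT to 260.1, 294 and 239 in HIF-1α/2α cells, a 36.8-fold decrease (log2 change -5.20 ± 0.11 SE, adjusted p = 2.9e-34); the antisense gene CYP1B1-AS1 overlaps it. EREG (chr4:74365145-74388749, plus strand), the EGF receptor ligand epiregulin, fell from 23751, 24333 and 19138 to 1065, 988 and 981 (22.1-fold, adjusted p = 7.6e-34). AREG, which encodes the related ligand amphiregulin, fell from 957, 1060.0 and 835 to 48.4, 68.1 and 44.9 (17.8-fold, adjusted p = 2.0e-21). No HIF-1α/2α library came near the lowest WT library for any of them, and the ranking required that the groups did not overlap.

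LUM, which encodes the matrix proteoglycan lumican, fell from 167, 182 and 317 normalized counts in WT to 0, 4.70 and 10.7 (log2 change -5.51 ± 0.48 SE, adjusted p = 3.2e-13), the largest decrease among these 15 genes, with -6.71 without HIF-1α/2α replicate 3 and -4.78 without replicate 1. SLN, which encodes the calcium pump inhibitor sarcolipin, fell from 1167, 1100.0 and 1378 to 63.2, 78.7 and 55.6 (18.5-fold). ALOX5AP, which presents arachidonic acid to 5-lipoxygenase, fell from 1983 ± 19.5 to 143 ± 29.8 (SD, n = 3, 13.9-fold). The other genes were the chemoattractant receptor GPR15 (24.7-fold), INHBE, an inhibin β subunit (21.9-fold), HHIPL2 (15.7-fold), the bHLH factor ATOH8 (13.7-fold), HAVCR2, which encodes the immune checkpoint receptor TIM-3 (13.4-fold), SERPINB7 (13.2-fold), GASK1B (13.2-fold), the diacylglycerol kinase DGKI (12.5-fold) and SGPP2, a sphingosine-1-phosphate phosphatase (12.4-fold). In each of them the lowest WT library was above the highest HIF-1α/2α library, which the ranking required.

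**Figure D2:**
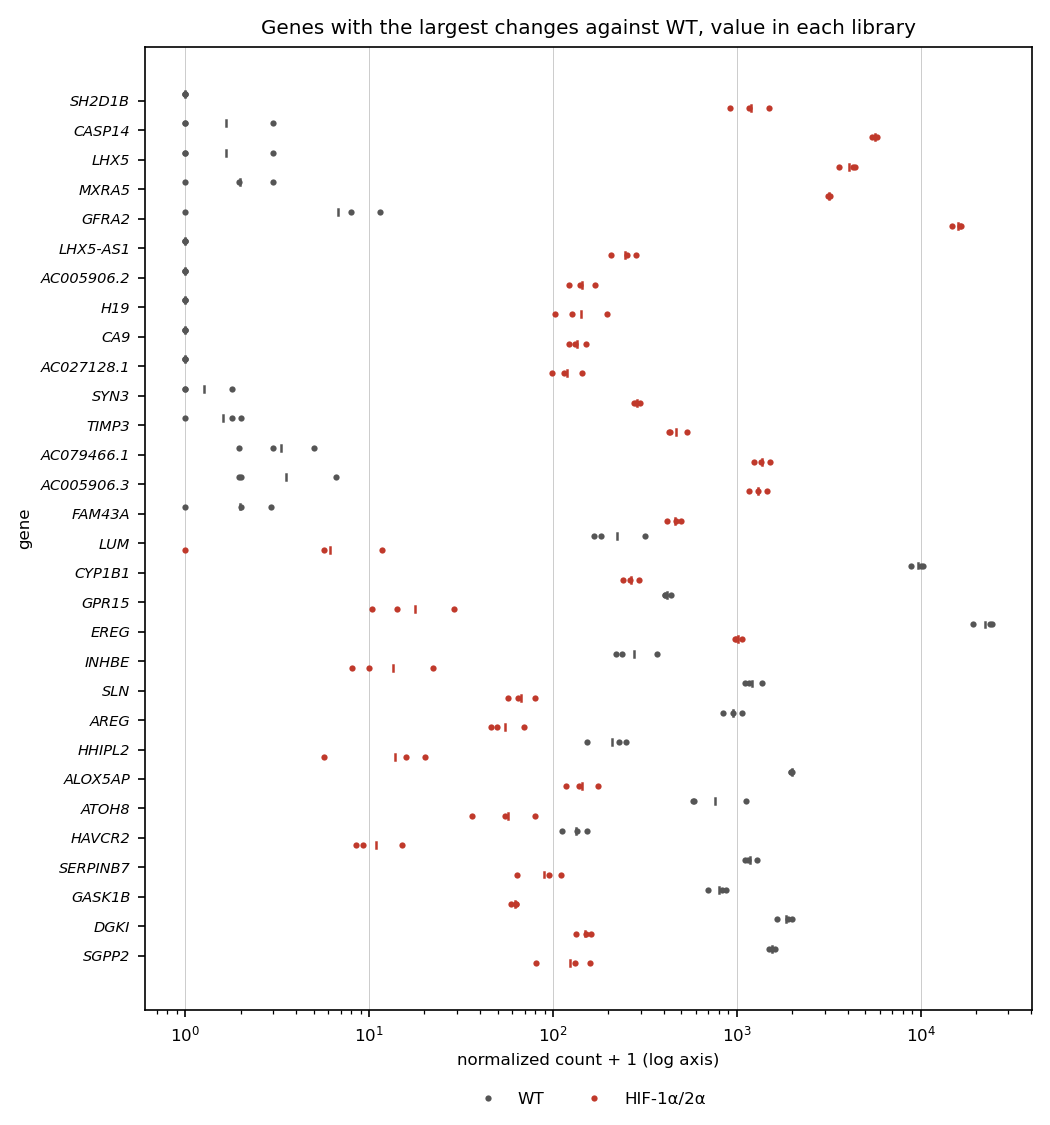
Normalized count plus 1 on a log axis for the 15 genes with the largest increases (upper rows) and the 15 with the largest decreases (lower rows) among genes with a mean of at least 50 normalized counts and no overlap between groups. Points are libraries (grey WT, red HIF-1α/2α, 3 each) and vertical marks are group means. Most of the increasing genes have at least 1 WT library at 0, drawn at 1, while the decreasing genes are well above 0 in every WT library. The decreasing genes could pass the minimum mean only through their WT level.

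Promoters of CA9, CASP14 and EREG and of ANGPTL4 and EGLN3, hypoxia-response genes of the lists below, are shown because they differ in whether they hold the HIF core motif next to the transcription start. Each runs 5′ to 3′ on the strand of its gene from 250 bases before to 50 after the start (RefSeq, GRCh38.p14), and capitals mark ACGTG or GCGTG on either strand, so that a match on the opposite strand reads CACGT or CACGC. They lie at chr9:35673678-35673977 for CA9, chr19:8363905-8364204 for ANGPTL4, chr19:15049230-15049529 for CASP14 and chr4:74364895-74365194 for EREG, on the plus strand, and at chr14:33951025-33951324 on the minus strand for EGLN3.
CA9: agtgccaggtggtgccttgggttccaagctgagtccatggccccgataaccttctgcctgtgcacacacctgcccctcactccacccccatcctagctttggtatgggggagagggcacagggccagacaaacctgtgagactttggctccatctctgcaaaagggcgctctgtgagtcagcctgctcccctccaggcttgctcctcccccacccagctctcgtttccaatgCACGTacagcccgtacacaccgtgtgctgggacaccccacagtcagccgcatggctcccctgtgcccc
ANGPTL4: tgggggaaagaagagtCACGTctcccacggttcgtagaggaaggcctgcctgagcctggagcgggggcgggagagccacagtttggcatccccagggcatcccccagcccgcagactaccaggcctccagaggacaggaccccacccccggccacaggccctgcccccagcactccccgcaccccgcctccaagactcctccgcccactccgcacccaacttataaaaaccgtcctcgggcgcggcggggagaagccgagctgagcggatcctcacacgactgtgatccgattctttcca
EGLN3: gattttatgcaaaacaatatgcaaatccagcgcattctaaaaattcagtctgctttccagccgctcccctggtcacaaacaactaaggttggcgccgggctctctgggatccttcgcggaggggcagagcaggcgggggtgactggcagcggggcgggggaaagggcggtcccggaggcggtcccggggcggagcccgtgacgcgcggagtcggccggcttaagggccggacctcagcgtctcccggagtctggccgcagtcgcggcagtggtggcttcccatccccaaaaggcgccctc
CASP14: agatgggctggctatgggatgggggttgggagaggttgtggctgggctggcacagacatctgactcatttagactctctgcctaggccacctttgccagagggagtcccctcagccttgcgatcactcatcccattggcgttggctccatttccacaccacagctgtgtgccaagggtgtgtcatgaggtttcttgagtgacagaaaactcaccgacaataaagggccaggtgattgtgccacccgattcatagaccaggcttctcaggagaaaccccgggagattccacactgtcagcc
EREG: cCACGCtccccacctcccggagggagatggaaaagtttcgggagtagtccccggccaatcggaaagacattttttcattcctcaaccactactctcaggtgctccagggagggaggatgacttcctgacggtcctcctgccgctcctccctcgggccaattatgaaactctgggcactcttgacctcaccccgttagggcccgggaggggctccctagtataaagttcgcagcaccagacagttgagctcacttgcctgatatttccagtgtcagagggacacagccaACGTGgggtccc
The CA9 and ANGPTL4 promoters held 1 match each, EREG, which fell, held 2, and CASP14 and EGLN3, both of which rose, held 0. The motif was no more frequent in genes that changed. Of the higher genes with a promoter in the table, 428 of 836 (51.2%) held a match, of the lower genes 274 of 501 (54.7%), and of all tested genes 59.4% of 13527. The median number of CG dinucleotides per promoter was 22, 20 and 24 in the same order. These counts describe letters in a 300-base window, and the absence of a match says only that these letters are not in the window.

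Genes of the hypoxia response were among those that rose. Of 23 tested genes on the list of pH and hypoxia markers 10 were higher, 1 was lower and 12 were not called, with a median log2 change of 0.92, against 0.06 over all genes and the background shares of 4.99% and 2.74%. NDRG1, a stress-responsive HIF target, rose from 26064, 25677 and 27919 normalized counts to 326155, 344748 and 301466, and CA12, another membrane carbonic anhydrase, from 17436, 17439.6 and 18091 to 173563, 165152 and 146580. The other members that rose were CA9, the mitophagy receptor BNIP3L, the collagen crosslinking enzyme LOX, the secreted hormone STC1, ANKRD37, ZNF395, DDIT4 and MXI1. NDUFA4L2, a hypoxia-inducible protein related to a respiratory chain subunit, fell from 134, 129.8 and 146 to 32.8, 64.6 and 89.8 (adjusted p = 8.8e-04), a call that was lost without HIF-1α/2α replicate 1 (log2 change -0.79). Of 11 oxygen-sensing genes 4 were higher and 0 lower. EGLN3, the HIF prolyl hydroxylase PHD3, rose from 6010.3, 6095 and 6049.9 to 72505, 71429.6 and 63754, and LIMD1, a scaffold of the hydroxylase complex, rose 4.70-fold, while the other calls were HIF1A and EPAS1 themselves. VHL was at 1956, 2196 and 2067 in WT and 1884, 1967 and 1871 in HIF-1α/2α cells (adjusted p = 0.21).

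Of 22 genes of glucose uptake, glycolysis and lactate export 8 were higher and 1 was lower, with a median log2 change of 0.71. The increases were modest: LDHA, lactate dehydrogenase A, rose 2.22-fold, the glucose transporter gene SLC2A1 2.45-fold, the hexokinase gene HK2 2.63-fold and PFKFB4, which makes the glycolytic activator fructose-2,6-bisphosphate, 4.58-fold. ENO2, PFKFB3, ALDOA and SLC2A3 rose between 2.12-fold and 2.47-fold. The aldolase gene ALDOC went the other way, from 241, 212 and 321 to 97.6, 110.4 and 96.2 (log2 change -1.34 ± 0.18 SE, adjusted p = 2.7e-08).

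Some angiogenic signals rose. Of 20 tested genes 9 were higher, 1 was lower and 10 were not called, with a median log2 change of 1.09. ANGPTL4, a secreted inhibitor of lipoprotein lipase whose promoter is printed above, rose from 43.6, 41.7 and 83.0 to 3270.4, 3600.2 and 3165 (60.5-fold), VEGFA, the main angiogenic growth factor, from 15149, 14046 and 12452 to 95027, 94792 and 93234, and PGF, placental growth factor, 20.9-fold. Of these, ANGPTL4 was also higher in 2 and PGF in all 4 of the lines with inactive HIF subunits described at the end. The peptide hormone genes APLN and ADM rose 6.56-fold and 6.18-fold, and the ephrin gene EFNA1 fell 2.46-fold. Of 18 growth factor and cell cycle genes linked to HIF-2α 7 were higher and 2 lower, with a median of 0.49. IGFBP3, which binds insulin-like growth factors, rose 18.4-fold, TGFA, another EGF receptor ligand, 3.61-fold, CCND1, cyclin D1, 2.73-fold, and EGFR itself 2.40-fold. EREG and AREG were the members that fell, so that ligands of this receptor moved in both directions.

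Matrix genes changed in both directions. Of 24 genes of collagens and basement membrane 8 were higher and 5 lower, with a median of -0.01. In fits without 1 library the lower call of COL15A1 was kept in 0 of 6 and the higher call of COL3A1 in 4 of 6. COL5A1, a fibrillar collagen chain, rose from 25.2, 36.9 and 34.0 to 1134, 1150.0 and 1248 (36.4-fold), COL6A3 rose 13.0-fold and COL5A2 4.28-fold. The basement membrane chain genes COL4A1 and COL4A2 fell 3.17-fold and 2.33-fold, and FN1, fibronectin, fell 2.23-fold. Of 20 matrix proteases and inhibitors 8 were higher, with MMP2 at 4.41-fold and MMP9 at 3.09-fold, and TIMP2 was lower (2.36-fold), with a median of 0.87. Among 25 genes of junctions and adhesion 4 were higher and 6 lower, with a median of 0.18. The lower ones included VCAM1, which fell from 6623, 7293 and 6557 to 857, 752 and 876, the neural adhesion gene L1CAM (4.36-fold), EPCAM (3.86-fold) and CLDN1 (3.83-fold). Of 18 genes of epithelial-mesenchymal transition THY1 and ACTA2 were higher and ESRP2, TAGLN and S100A4 lower, with the calls of THY1 (WT replicate 2 or HIF-1α/2α replicate 3, log2 change 1.16 for the former) and S100A4 (WT replicate 3 or HIF-1α/2α replicate 1, -0.98 and -0.85) lost without 1 library, and the list median was 0.21, or -0.30 with unmeasurable genes at their bound.

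Several developmental signalling genes were among the strongest changes. NOG, the BMP antagonist noggin, rose from 56.2, 67.3 and 62.0 to 7595, 7509 and 9898 (log2 change 7.06 ± 0.13 SE, adjusted p = 1.7e-37). Of 23 genes of TGF-β and BMP signalling 5 were higher and 4 lower, with a median of 0.73. The lower ones were the ligand genes TGFB2 (4.58-fold) and INHBA (log2 change -1.38 ± 0.09 SE, adjusted p = 2.2e-17) and the BMP target genes ID1 (2.59-fold) and ID3 (2.65-fold). Of 23 WNT and Notch genes 4 were higher and 1 was lower, with a median of 0.16. The WNT ligand genes WNT5B (24.2-fold) and WNT5A (2.35-fold), the transcription factor gene LEF1 (21.8-fold) and the receptor gene FZD8 (16.9-fold) rose, and the Notch ligand gene JAG2 fell (2.56-fold). Of 30 axon guidance genes 8 were higher and 5 lower, with a median of 0.09, and the higher call of SEMA3D was kept in 1 of 6 fits without 1 library. The semaphorin receptor gene PLXNA2 rose 15.2-fold and SEMA5B 12.3-fold, while UNC5B, a netrin receptor, fell 6.02-fold and SEMA3B 4.89-fold.

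Among lipid synthesis genes the called changes were decreases. Of 20 tested genes of sterol and fatty acid synthesis 8 were lower and 0 higher in edgeR's test, and in DESeq2 also 8 and 0. At an unadjusted p under 0.05, 19 were lower and 0 higher, and the median log2 change was -0.75. SCD, stearoyl-CoA desaturase, fell from 78265, 82216 and 99261 to 18872, 16945 and 16497 (log2 change -2.31 ± 0.07 SE, adjusted p = 4.3e-30). SREBF1, the transcription factor of fatty acid synthesis, fell from 14796, 14239.6 and 15812 to 3189, 3236 and 3236, and INSIG1, a sterol-responsive regulator of its processing, fell 3.79-fold. DHCR7, HMGCS1, FASN, LSS and ACACA fell as well, ACACA the least (2.05-fold) and DHCR7 the most (log2 change -1.32 ± 0.07 SE, adjusted p = 1.5e-20). Of 18 genes of lipid droplets and fatty acid handling 3 were higher and 4 lower, with a median of -0.09. The droplet coat gene PLIN2 rose 3.78-fold, HILPDA, an inhibitor of lipolysis, rose 3.25-fold and CD36 rose at least 4.41-fold with few reads, while DGAT2, LPIN1, ACSL1 and PPARA fell between 2.07-fold and 3.68-fold. Without 1 library the calls of CD36 (WT replicate 2 or 3, HIF-1α/2α replicate 2 or 3, log2 change 2.94 to 3.58), ACACA (WT replicate 3 or HIF-1α/2α replicate 3, -0.97 and -0.95) and ACSL1 and PPARA (HIF-1α/2α replicate 3, -0.98 and -0.91) were lost, and that of CD36 also with only the 2 groups in the fit.

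**Figure D3:**
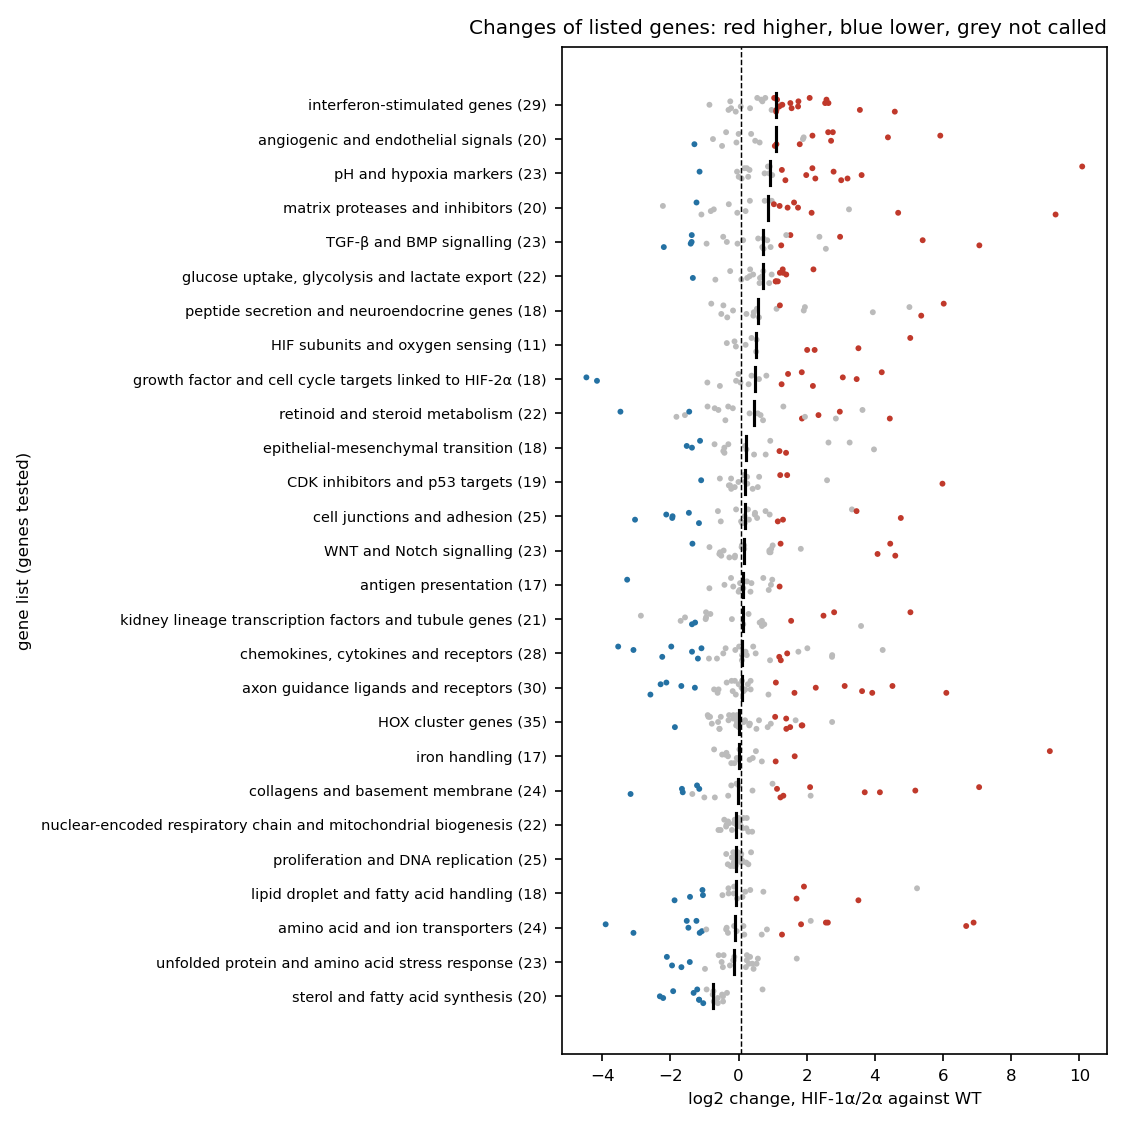
Fitted log2 change in HIF-1α/2α against WT cells of each tested gene on the gene lists, ordered by the list median (black mark) and without the marker lists and the examples of the study, with the number of genes tested in brackets. Red points were called higher, blue points lower and grey points not called, and the dashed line is the median of all genes tested at 0.06. Of the lists drawn, interferon-stimulated genes and angiogenic signals are at the top, sterol and fatty acid synthesis is at the bottom with 8 blue points and no red one, and proliferation and respiratory chain genes are all grey and close to 0.

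A few genes of amino acid metabolism and transport changed. Of 23 genes of the unfolded protein and amino acid stress response 4 were lower and 0 higher, by DESeq2 also 4 and 0, with 12 and 9 at an unadjusted p under 0.05 and a median of -0.14. They were CTH (4.30-fold) and PSAT1 (log2 change -1.43 ± 0.06 SE, adjusted p = 8.7e-25), enzymes of cysteine and serine synthesis, the glutathione-degrading enzyme gene CHAC1 (3.87-fold) and the cystine transporter gene SLC7A11 (3.20-fold). Of 24 amino acid and ion transporters 6 were higher and 7 lower, with a median of -0.10. SLC38A5, a glutamine transporter, rose from 178, 147 and 211 to 18854, 20684 and 23812 (119-fold), and the potassium channel gene KCNJ15 and the cation transporter gene SLC22A3 fell 8.49-fold and 15.0-fold, the latter with a log2 change of -4.79 without HIF-1α/2α replicate 1. GLUL, glutamine synthetase, had 0, 0 and 14.0 normalized counts in WT and 859, 859.8 and 1022 in HIF-1α/2α cells. Of 22 genes of retinoid and steroid metabolism 4 were higher, among them the retinol dehydrogenase gene RDH10 (5.08-fold), and 2 lower, with a median of 0.44. The lower ones were the vitamin D receptor gene VDR (2.73-fold) and ALDH1A1, a retinaldehyde dehydrogenase that fell from 4906, 5153 and 6974 to 437, 493 and 614.

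Immune genes were listed in 3 groups. Of 28 chemokines, cytokines and receptors 7 were lower and 3 higher, with a median of 0.10, or -0.04 with unmeasurable genes at their bound. IL18 fell from 603, 688 and 702 to 63.2, 82.2 and 26.7, the monocyte chemokine gene CCL2 fell 8.49-fold and TNF 4.73-fold, with a log2 change of -2.95 for TNF without HIF-1α/2α replicate 3, while the death ligand gene TNFSF10 rose 2.69-fold. Among 17 antigen presentation genes CD74, the class II invariant chain, fell 9.65-fold and HLA-C rose 2.30-fold, with a median of 0.14. Of 29 interferon-stimulated genes 16 were higher and 0 lower by both edgeR and DESeq2, with 22 and 4 at an unadjusted p under 0.05 and a median of 1.11. OAS2, an antiviral sensor, rose from 30.1, 16.8 and 36.0 to 459, 581 and 918, and RSAD2, the antiviral enzyme viperin, from 30.1, 41.7 and 43.0 to 434, 475 and 452. This list was also raised in lines with inactive HIF subunits, which are described at the end, where 14 of its genes were higher in HIF-1α R30E, 8 in HIF-1αDM, 9 in HIF-2α R27E and 7 in HIF-2αDM, and the part of integration and selection in it was not tested.

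Other listed groups changed in a few members or none. Of 25 proliferation and DNA replication genes 0 were called in either direction by edgeR or DESeq2, although 3 were higher and 10 lower at an unadjusted p under 0.05, with a median of -0.08. Of 22 genes of the respiratory chain and mitochondrial biogenesis 0 were called by either tool, with 6 and 9 at that p and a median of -0.07. Of 19 CDK inhibitors and p53 targets 3 were higher, among them CDKN1A (2.68-fold), and SESN2 was lower. Of 35 HOX genes 6 were higher, among them HOXD11 (3.66-fold), and HOXB13 was lower, a call that was lost in 4 of 6 fits without 1 library (WT replicate 2 or 3, HIF-1α/2α replicate 2 or 3, log2 change -1.38 to -1.77 there). Of 21 kidney lineage and tubule genes 4 were higher, with GATA3, a transcription factor of the nephric duct, rising from 5.82, 6.41 and 8.00 to 211, 228 and 237 and the tubule peptidase gene MME 6.98-fold, and GGT1 and HNF4G were lower. Of 17 iron genes the reductase gene CYBRD1 (at least 25.2-fold), CP and STEAP1 were higher. Of 18 peptide secretion genes CPE, a peptide-processing carboxypeptidase, rose 64.9-fold and ENO2 2.32-fold, and CHGA was higher with few reads, a call lost without any 1 WT library or HIF-1α/2α replicate 3 (log2 change 3.80 to 5.37). The medians of these lists were 0.18, 0.00, 0.14, 0.00 and 0.57 in this order, with that of the kidney list at -0.20 once unmeasurable genes are set to their bound. Of 8 genes that the study chose from these samples as examples 6 were higher and 0 lower, which is no independent evidence. The 6 include PPFIA4, which the study describes as responsive to HIF-1α and insensitive to raised HIF-1α/2α. Its log2 change was 1.25 to 1.59 without 1 library, called in 6 of 6 fits, and it was lower than in the HIF-1α line. PTPRN, which the study describes likewise, was not called (log2 change -0.80). Of the marker lists, EPAS1 and CA9 were higher and NDUFA4L2 lower among the 786-O markers, and HBB was higher and LUM and PDGFRB lower among those of other cell types.

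Set directly against the HIF-2α line, which has the same IDR on the other structured part, HIF-1α/2α cells had 303 genes higher (1.06% of those tested) and 299 lower (1.04%). These libraries are the same that were compared with WT. CASP14 was at 310.0, 176 and 311 normalized counts in the HIF-2α line, 21.2-fold below HIF-1α/2α cells (log2 difference 4.40 ± 0.13 SE, adjusted p = 1.5e-28), and CA9 at 9.87, 5.68 and 6.92, 17.4-fold below. COL5A1 was 20.8-fold and GLUL 16.9-fold higher in HIF-1α/2α cells, as were the neural adhesion gene CNTN1 (14.1-fold) and the cardiac homeobox gene NKX2-5 (19.8-fold). NKX2-5 was also higher in all 4 lines with inactive HIF subunits. LHX5, SH2D1B and MXRA5 were higher by 9.43-fold, 10.3-fold and 8.34-fold, while the difference in GFRA2 missed the threshold (log2 difference 0.18 ± 0.07 SE, adjusted p = 0.079).

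Other genes were lower in HIF-1α/2α cells than in the HIF-2α line. HHIPL2 was at 365, 285 and 265 normalized counts in the HIF-2α line against 14.8, 4.70 and 19.2 (22.9-fold), and PTGIS, prostacyclin synthase, at 123, 108 and 127 against 5.74, 2.35 and 10.7 (18.6-fold). BEX5 was 16.6-fold, the ribonuclease gene RNASE1 13.5-fold, the WNT antagonist gene NKD2 12.3-fold and the transcription factor gene NFATC2 10.1-fold lower, and without HIF-1α/2α replicate 3 the log2 difference of BEX5 was -5.82. CYP1B1 was 7.41-fold and EREG 2.02-fold lower, so that both stood below WT in the HIF-2α line too, at 1957 and 2051. For the sterol and fatty acid list 0 of 20 genes differed at the threshold, though 15 had an unadjusted p under 0.05, with a median difference of 0.16. Among the 20 angiogenic genes PGF was lower, with 2863 ± 585 in the HIF-2α line against 893 ± 93.1 (SD, n = 3), and 0 were higher. Of the 22 glycolysis genes PFKFB4 was higher (log2 difference 1.07 ± 0.08 SE, adjusted p = 1.3e-13) and ALDOC lower (-1.19 ± 0.18 SE, adjusted p = 2.3e-06).

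Against the HIF-1α line, which has the same structured part with its own IDR, HIF-1α/2α cells had 488 genes higher (1.70%) and 858 lower (2.99%). LHX5 was at 0 in each library of the HIF-1α line and CASP14 at no more than 0.947, so that they were at least 1422-fold and at least 1959-fold higher in HIF-1α/2α cells. SH2D1B (at least 414-fold), LHX5-AS1 (at least 85.5-fold), SYN3 (at least 98.7-fold) and the secreted WNT modulator gene SFRP2 (164-fold) completed the 6 largest increases, SFRP2 with a log2 difference of 9.12 without HIF-1α replicate 2, and GFRA2 was 54.1-fold higher. In the other direction ALDOC was at 3680.3, 3408 and 2785 in the HIF-1α line, 32.5-fold above HIF-1α/2α cells, and CA9 at 2091, 2116 and 1935, 15.2-fold above. Further genes with the largest decreases were the secretory granule gene PTPRN (at least 63.7-fold), PTGIS (28.4-fold), the keratin gene KRT81 (21.2-fold) and the growth factor signalling inhibitor gene SPRY1 (20.2-fold).

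Listed genes also differed from the HIF-1α line. Of the 18 genes linked to HIF-2α 6 were higher in HIF-1α/2α cells, among them CXCR4, EPO, IGFBP3, CCND1 and TGFA, and EREG and AREG were lower. Of the 20 angiogenic genes 6 were higher, VEGFA by 3.41-fold. Of the 22 glycolysis genes 3 were lower (ALDOC, GPI and ENO2). CCND1 was at 34897, 35761 and 35244 normalized counts in the HIF-1α line, 93056, 96048 and 88103 in HIF-1α/2α cells and 93408, 93519.5 and 87679.8 in the HIF-2α line, the last pair overlapping with a log2 difference of 0.01 ± 0.05 SE, adjusted p = 0.90. VCAM1 and ALDH1A1 were at 8190.2 ± 214 and 7996 ± 285 in the HIF-1α line (SD, n = 3), 9.87-fold and 15.6-fold above HIF-1α/2α cells, whereas the HIF-2α line had 744 ± 71.3 and 411 ± 54.7.

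**Figure D4:**
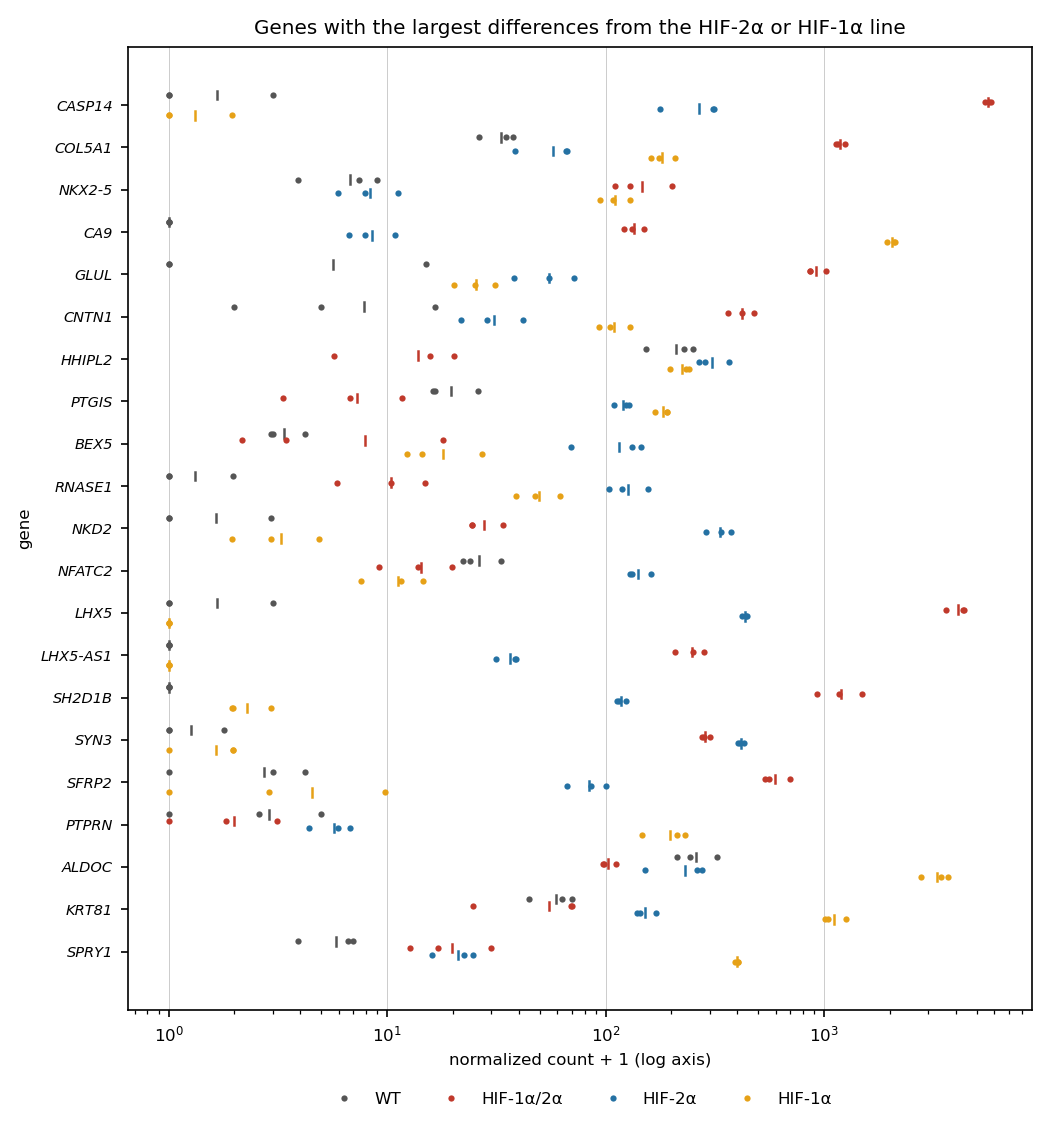
Normalized count plus 1 on a log axis for the genes with the largest differences between HIF-1α/2α cells and the HIF-2α line (upper rows, CASP14 to NFATC2) or the HIF-1α line (lower rows, those reported and not already drawn). Points are libraries (grey WT, red HIF-1α/2α, blue HIF-2α, yellow HIF-1α, 3 each) and vertical marks are group means. CASP14, LHX5, LHX5-AS1 and SH2D1B are highest in HIF-1α/2α cells, lower in the HIF-2α line and at or near 0 in WT and the HIF-1α line, whereas CA9, ALDOC, PTPRN and KRT81 are highest in the HIF-1α line.

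Most genes of chromosome 14 had higher counts in HIF-1α/2α cells than in WT. Over 897 tested genes of this chromosome the median log2 change was 0.45, with 62 genes (6.91%) higher and 13 (1.45%) lower. The shares over all genes tested were 4.99% and 2.74%, and chromosome 21 had a larger share higher (7.96%). It is the medians and not the called shares that set chromosome 14 apart. Among the 436 genes with a mean of at least 50 normalized counts 86.7% had a log2 change above 0, and the median was 0.41, 0.38 and 0.40 in the 3 HIF-1α/2α libraries. It lay between 0.30 and 0.50 in each of the 8 windows of 10 Mb with at least 20 genes. The same genes had a median log2 change against WT of 0.11 in cells with full-length HIF-2α and 0.08 in cells with full-length HIF-1α. Among such genes the medians of the other chromosomes lay between -0.33 (chromosome 13) and 0.16 (chromosome 11). Chromosome 13 lay on the other side of 0, with medians of -0.22, -0.32 and -0.40 in the 3 HIF-1α/2α libraries, 28.0% of its 250 such genes above 0, and 14 (2.54%) of 551 tested genes higher and 24 (4.36%) lower. Its median against WT was below 0 in the full-length lines too, at -0.19 with HIF-2α and -0.15 with HIF-1α over these 250 genes. Chromosome 4 had a larger share lower (4.80%). HIF1A and EGLN3 lie on chromosome 14, and their changes of 32.8-fold and 11.4-fold were larger than this shift. Without chromosome 14, 1369 genes were higher and 773 lower. The cause of these shifts was not tested.

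**Figure D5:**
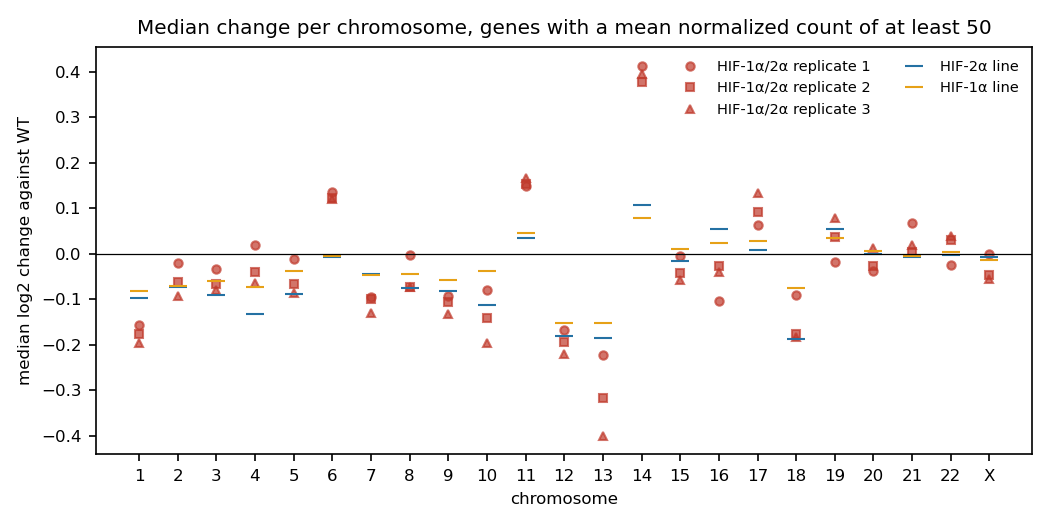
Median log2 change against WT for each chromosome over genes with a mean of at least 50 normalized counts (Y not drawn). Red symbols are the 3 HIF-1α/2α libraries, each against the mean of the WT libraries with 0.5 added to both, and blue and yellow lines are the fitted medians of the HIF-2α and HIF-1α lines. Chromosome 14 stands at 0.38 to 0.41 in the HIF-1α/2α libraries, above all other chromosomes, and chromosome 13 at -0.40 to -0.22 is the lowest.

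Since WT cells had no transgene, 4 lines of batch 1 with a transgene were set beside HIF-1α/2α cells. They express HIF subunits with mutated DNA-binding (HIF-1α R30E, HIF-2α R27E) or dimerization domains (HIF-1αDM, HIF-2αDM), which the study calls inactive. They also went through integration and selection. In HIF-1α R30E some hypoxia-response genes were lower than in WT, as given below, so that this line did not leave all of them unchanged. The part of the mutated subunits in such changes was not tested. These lines were compared with the WT cells of their own batch, which used another extraction and library kit. Genes called higher made up 2.04% of 23339 tested in HIF-1α R30E, 0.428% in HIF-1αDM, 0.437% in HIF-2α R27E and 0.437% in HIF-2αDM, and genes called lower 0.583%, 0.00428%, 0.0471% and 0.0343%. Of 1371 genes that were higher in HIF-1α/2α cells and tested there, 227 (16.6%) were higher in at least 1 of these lines and 44 in all 4. The counts were 217 in HIF-1α R30E, 71 in HIF-1αDM, 73 in HIF-2α R27E and 74 in HIF-2αDM, which is 45.7%, 71.0%, 71.6% and 72.5% of the genes called higher in those lines. RSAD2, PGF and NKX2-5 were higher in all 4 lines, OAS2 in HIF-1α R30E and HIF-2α R27E, ANGPTL4 in HIF-1α R30E and HIF-1αDM, and IGFBP3, NOG and PLXNA2 in HIF-1α R30E. In the HIF-1α R30E line 41 of the 1371 genes were instead lower, among them EGLN3, VEGFA, CA12 and NDRG1. The counts in HIF-1αDM, HIF-2α R27E and HIF-2αDM were 1, 5 and 4. On the list of pH and hypoxia markers 0 genes were higher and 6 lower in HIF-1α R30E, against 1 and 0 in HIF-2α R27E. In HIF-1αDM and HIF-2αDM 0 of these markers were called. Other lists moved in HIF-1α R30E too. Retinoid and steroid genes had 4 higher and 0 lower (median log2 change 1.29), and junction and adhesion genes 7 and 1 (0.42). Axon guidance and TGF-β and BMP genes had 4 and 1 each, and matrix proteases and inhibitors 4 and 0. Sterol and fatty acid synthesis had 1 and 0 (-0.54), and the amino acid stress list 0 and 0 (-0.43). In HIF-1αDM, HIF-2α R27E and HIF-2αDM at most 1 gene of each of these lists was higher.

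The genes lower in HIF-1α/2α cells were counted in the same way. Called higher instead were 27 in HIF-1α R30E, 5 in HIF-1αDM, 4 in HIF-2α R27E and 2 in HIF-2αDM, of 782 tested in batch 1. Of the same 782, 50 (6.39%) were lower in HIF-1α R30E, which is 36.8% of the genes called lower in that line, 0 in HIF-1αDM, 4 in HIF-2α R27E and 1 in HIF-2αDM. SLN, GPR15, HHIPL2, ALOX5AP, INHBE, DGKI and SGPP2 were among the 50. CASP14, LHX5, SH2D1B, GFRA2, MXRA5, CA9, COL5A1, EREG, AREG, CYP1B1, SCD and SREBF1 were not called in any of the 4 lines, which leaves a difference below the threshold possible.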

How the data were processed

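Poly(A) RNA of batch 2 was sequenced as paired ends on a NovaSeq. The deposited counts are whole reads per gene in one file per library: per the labels and methods, the authors aligned reads to hg38 with STAR (2.7 in the processing notes), sorted them with SAMtools 1.9 and counted them on GENCODE genes with HTSeq (0.11.1) in union mode without strand, so that overlapping antisense genes share reads. Groups were taken from the sample titles. For the HIF-2αDM libraries the genotype label names HIF-1α, while title and description name HIF-2α, and the title was used. Genes averaging 0.5 or more normalized counts over the 15 libraries of batch 2, 28684 of 60609, were tested in R 4.3.3 with edgeR 4.0.16 (TMM normalization, quasi-likelihood test, all 15 libraries in a single fit, no block, two-sided, Benjamini-Hochberg adjustment over all genes tested). A gene was called at an adjusted p of at most 0.01 and at least 2-fold, the thresholds of the study. Fold changes against a group with at most 3 reads in every library are lower bounds, computed from the normalized means with the floor of 3 reads per library. The 27 libraries of batch 1 were fitted separately in the same way, with 23339 genes tested, and used only for the lines with inactive HIF subunits.

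Genes were named by rule: HIF1A, EPAS1 and ARNT, the 15 called genes with the largest change in each direction against WT and the 6 in each direction against the HIF-2α and HIF-1α lines (mean of at least 50 normalized counts, no overlap between groups), and called members of the gene lists. Where a gene of one comparison recurs in another, and for the genes under closer look and those of the inactive lines, names were chosen after values were seen. The comparison, the genes and the lists were chosen with earlier results of these data known. On simulated data for HIF-1α/2α against WT (27852 genes), the test recovered 72 of 100 genes changed 2.5-fold and 86 of 100 changed 4-fold, with 0 false calls. As many of the changed genes were raised as lowered, none had a low mean count, and all other genes were simulated without a change. The real comparison had more changes, unequal in direction, so that these rates need not hold for it. DESeq2 1.42.0, RLE normalization, other filters, thresholds and samples, a replicate block and leaving out each library were tried as alternatives. A few genes are not reported here.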

Additional observations from a re-analysis of the deposited data

Results flagged for a closer look

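Some genes were called in opposite directions against WT in HIF-1α/2α cells and in a full-length line, with the direct difference called too. All groups hold 3 libraries, too few to look for single libraries that stand apart, and each difference below is a log2 value of HIF-1α/2α cells minus the other line from edgeR's quasi-likelihood test. Against the HIF-2α line they were PTGIS (-4.21), which was lower than WT in HIF-1α/2α cells and higher in the HIF-2α line, and CARMIL2 (-2.65). Against the HIF-1α line, 2 genes were higher than WT in HIF-1α/2α cells and lower in the HIF-1α line, the chemokine receptor gene CXCR4 (3.73) and N4BP3 (3.31). The other 21 were lower than WT in HIF-1α/2α cells and higher in the HIF-1α line. The largest of these differences were in ALDOC (-5.02), PTGIS (-4.83), AL161431.1 (-4.29), the tight junction gene CLDN2 (-3.76), L1CAM (-3.71) and AIF1L (-3.64). The others were MALRD1 (-3.54), SLITRK4 (-3.35), UPK1B (-3.32), SEMA3F (-3.16), AFAP1L2 (-3.13), SULT1A1 (-2.93), MYCL (-2.87), LNCOG (-2.84), RAPGEF3 (-2.83), TRPA1 (-2.64), ADGRF4 (-2.60), CALB2 (-2.42), AKR1B10 (-2.41), TSPAN15 (-2.40) and AL139351.3 (-2.37). The comparisons share the WT and HIF-1α/2α libraries.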

How the results depend on the processing

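The counts of called genes stayed within 1.5 times of the reported ones under DESeq2 (1439 higher and 782 lower than WT, with an adjusted p not given for 3901 genes), RLE normalization, other low-count filters, only the 2 groups compared, TMM factors computed without chromosome 14 and an adjusted p of at most 0.05 (1871 and 964). Without the fold threshold they were 3803 higher and 4242 lower than WT, 1969 and 1951 against the HIF-2α line and 2496 and 3344 against the HIF-1α line. Leaving out 1 library gave 1309 to 1429 higher and 701 to 749 lower than WT, 253 to 291 and 269 to 306 against the HIF-2α line, and 437 to 477 and 755 to 817 against the HIF-1α line. Libraries with the same replicate number did not deviate together (correlations -0.0072, -0.0027 and -0.0066, and 0 of 3 correlated best with their own number). A replicate block gave 1469 and 808 against WT, 323 and 342 against the HIF-2α line and 515 and 903 against the HIF-1α line. Of 225 called genes followed against WT, 203 kept their call and direction in every alternative run, 18 lost it only when 1 library was left out and 4 in another setting (SEMA3D with the replicate block, CHGA, CD36 and COL15A1 with only the 2 groups), and 0 changed direction. Without 1 library COL15A1 was called in 0 of 6 fits, SEMA3D in 1, and CHGA and CD36 in 2 each. The 13 called genes followed against each of the HIF-2α and HIF-1α lines kept their calls in every alternative run. The calls lost without 1 library included IRF9, IRF7, IFIT1, IFI44 and ISG20 among the interferon-stimulated genes, and ACACA, ACSL1, PPARA, S100A4, THY1, HOXB13 and NDUFA4L2. The chromosome 14 median was 0.47 with TMM factors computed without that chromosome, and 21.3% and 39.8% of the higher genes' promoters held ACGTG and GCGTG counted separately. After seeing the data, the calls without chromosome 14 and those in the lines with inactive HIF subunits were added. Normalized counts near the floor limit the smallest levels that can be compared.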
